A study of Mus musculus with 12 samples.

Results

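The genes of the proteasome were followed across 4 groups of mouse cells on 12 one-colour Agilent gene expression arrays, 3 arrays in each group. Members were the genes whose name on the array is Psma, Psmb, Psmc, Psmd, Psme, Psmf or Psmg followed by a number. This gave 48 of the 34810 genes on the array, carried by 61 of its 55681 probes, and the probe with the highest mean signal over the 12 arrays stood for each gene. Psmb8, Psmb9, Psmb10, Psme1 and Psme2, the 5 genes of the immunoproteasome and of its PA28 cap, were set apart from the other 43.

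The op/op group held kidney cells of mice homozygous for the op allele of Csf1, which encodes the growth factor M-CSF that most tissue macrophages depend on, and the WT group held kidney cells of their wild-type counterparts. Both kinds of mice carried the strain label B6C3Fe a/a-Csf1op/J and had received glyoxylate, a precursor of oxalate that leads to renal crystals, at 80 mg/kg over 6 days. There was thus no renal group without glyoxylate. The renal cells had been sorted magnetically for CD11b and CD11c, surface proteins of myeloid cells. The M1 group held bone marrow derived macrophages (BMDM) stimulated with lipopolysaccharide and GM-CSF, and the M2 group held BMDM stimulated with IL-4 and M-CSF. The labels give the strain of the BMDM as that of the kidneys but not their Csf1 genotype, and neither the age of the mice nor whether each replicate was a different animal or culture. The p-values below therefore rest on a spread between samples that may be technical.

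The proteasome is the protease that degrades ubiquitin-tagged proteins. Its 20S core stacks outer rings of alpha subunits on inner rings of beta subunits, and Psmb5, Psmb6 and Psmb7 encode the beta subunits that cut peptide bonds in the constitutive particle. The 19S cap, made of Psmc ATPases and Psmd non-ATPase subunits, recognizes, unfolds and feeds in substrates. Interferon-gamma and other inflammatory signals induce Psmb8, Psmb9 and Psmb10, which take the places of Psmb5, Psmb6 and Psmb7 in newly assembled immunoproteasomes. They also induce Psme1 and Psme2, the alpha and beta subunits of the PA28 activator. Immunoproteasomes make many of the peptides that class I MHC molecules present, and macrophages and dendritic cells hold them at high levels.

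Psmb8 and Psmb5 are paralogs, so the probe of Psmb8 is shown aligned with the second probe of Psmb5, which lies over the matching stretch of coding sequence. Capitals mark the 31 identical bases of the 50 that overlap (62%). The third line is the probe that stood for Psmb9, whose other probe behaved differently. In the mm9 coordinates of the files they lie at chr17:34337771-34337830 (plus strand), chr14:55233161-55233220 (minus strand) and chr17:34319174-34319233 (minus strand). The probes of Psmb10, Psme1 and Psme2 lie at chr8:108459677-108459736 (minus strand), chr14:56200194-56200253 (plus strand) and chr14:56206296-56206355 (minus strand).
Psmb8: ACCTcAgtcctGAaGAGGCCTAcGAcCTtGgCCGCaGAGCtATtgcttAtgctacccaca
Psmb5: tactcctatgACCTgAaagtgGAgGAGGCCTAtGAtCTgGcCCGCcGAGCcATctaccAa
Psmb9: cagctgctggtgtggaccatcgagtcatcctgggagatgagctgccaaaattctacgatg

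Levels are log2 signals relative to the 75th percentile of their own array, so 1 unit is a factor of 2, and levels of different probes are not set against each other. A gene was tested in a comparison if the scanner software called it well above background on all arrays of at least 1 of the groups compared. Of the 48 genes, 43 were well above background on all 12 arrays and 46 were tested. Psmb11, the thymus-specific catalytic subunit, was well above background on 0 of 12 arrays and Psma8, a testis-specific alpha subunit, on 1 of 12. No spot of any member was flagged as saturated.

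The arrays differed in ways that touch the results. Between arrays, the detected share of probes (well above background) was 63.1% to 68.8% on op/op arrays, 76.1% to 79.3% on WT arrays, 72.6% to 75.1% on M1 arrays and 64.4% to 65.1% on M2 arrays. The 75th percentile signal used for scaling was 252 to 295 on op/op and 277 to 424 on WT arrays. It was 497 to 505 on M1 and 525 to 530 on M2 arrays. The median SD over members was 0.286 in op/op, 0.334 in WT, 0.105 in M1 and 0.0540 in M2 cells, while the fit uses 1 pooled spread per gene. WT replicate 1 was alone on its slide, the other 5 renal arrays shared a slide and the 6 BMDM arrays shared the third. WT and M1 arrays lay in the upper row of their slides and op/op and M2 arrays in the lower row, so row and group cannot be told apart. H2-Ea, an MHC class II gene that is silent in the b haplotype of C57BL/6 and expressed in the k haplotype of C3H, is named H2-Ea-ps in the files. It was at 1.78, 2.06 and 2.26 on the op/op arrays, and at 1.76 on WT replicate 4. It was not well above background on WT replicates 1 and 2 or on any BMDM array. WT replicate 4 thus stood with the op/op arrays for a gene of the MHC, the region of chromosome 17 that also holds Psmb8 and Psmb9, and values without it are given beside the op/op results.

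M1 and M2 cells were compared as reference macrophages of opposite polarization. All 5 immunoproteasome and PA28 genes rose in M1 cells, while most other proteasome genes did not pass the test. Psmb9 was 4.43-fold and Psmb8 4.35-fold higher in M1 than in M2 cells, Psme2 2.29-fold, Psme1 2.23-fold and Psmb10 1.77-fold. Of the 41 other tested genes, 3 rose and 1 fell. In all, 8 of 46 members rose and 1 fell, where 8.85% of the 26188 genes tested rose, 8.92% fell and 17.8% passed in either direction (limma with Benjamini-Hochberg adjustment, called under 0.05). The median difference was 1.20 over the 5 genes, 0.17 over the other 41 and 0.00 over all genes tested (M1 minus M2, log2).

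Psmb8 encodes the chymotrypsin-like subunit of the immunoproteasome, also called LMP7 or beta5i. Its levels were 5.64, 5.34 and 5.43 on the M1 arrays, and 3.31, 3.31 and 3.41 on the M2 arrays. Every M1 array lay above every M2 array, and the difference was 2.12 ± 0.25 (SE, n = 3 arrays each, limma adjusted p = 8.6e-05). Psmb9, which encodes LMP2 or beta1i, was at 5.52, 5.17 and 5.47 on the M1 arrays and at 3.15, 3.21 and 3.36 on the M2 arrays. The groups did not overlap, with a difference of 2.15 ± 0.27 (limma adjusted p = 0.000156).

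Psmb10 encodes MECL-1 or beta2i, the third induced catalytic subunit. It was at 4.23, 4.11 and 4.30 on the M1 arrays and at 3.42, 3.23 and 3.50 on the M2 arrays. Its groups did not overlap either, but the difference was the smallest of the 5, at 0.83 ± 0.15 (limma adjusted p = 0.00239). The differences of the PA28 genes lay between those of the MHC-linked Psmb8 and Psmb9 and that of Psmb10. Psme1 was at 6.28, 6.07 and 6.26 on the M1 arrays and at 5.03, 5.01 and 5.11 on the M2 arrays, a difference of 1.16 ± 0.20 (limma adjusted p = 0.00152). Psme2 was at 5.01, 4.99 and 5.06 on the M1 arrays and at 3.89, 3.80 and 3.78 on the M2 arrays, a difference of 1.20 ± 0.15 (limma adjusted p = 0.000164). Neither PA28 gene had overlapping groups.

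**Figure D1:**
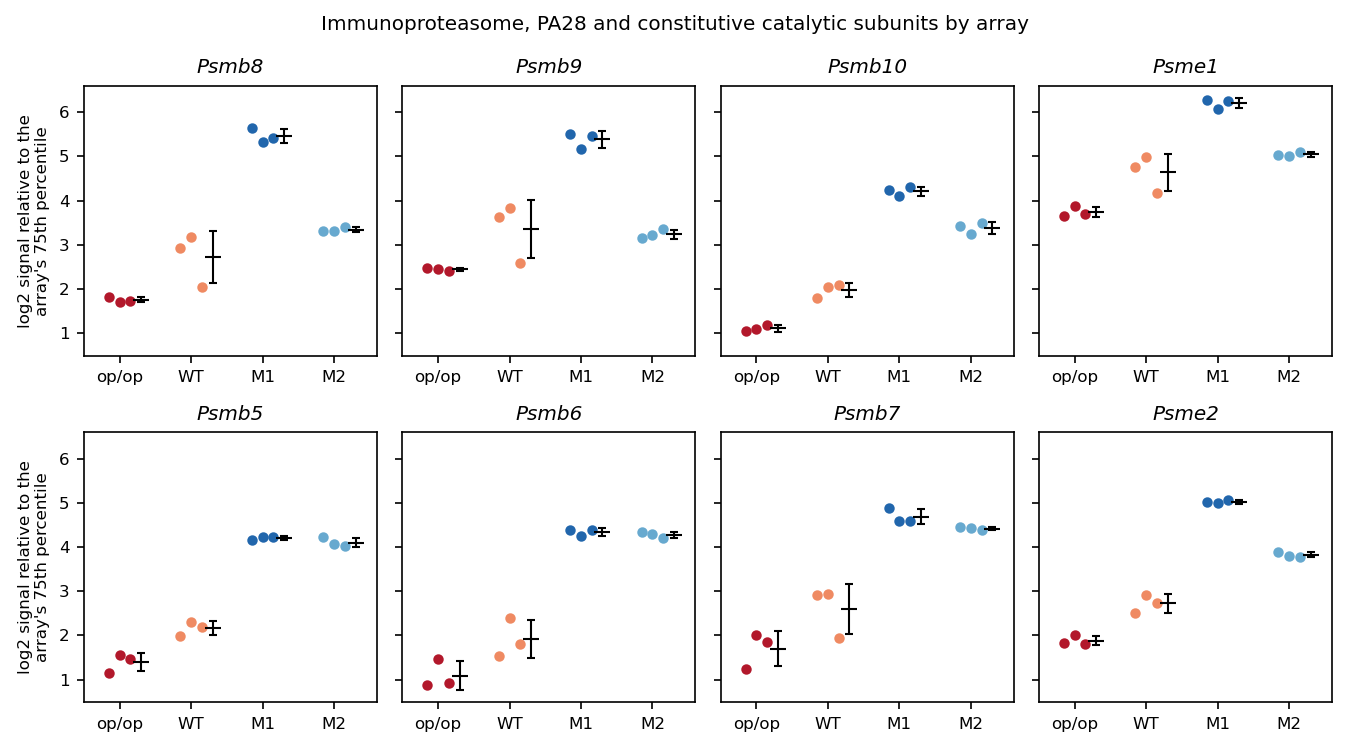
Log2 signal after scaling to each array's 75th percentile (vertical axis) for the 5 immunoproteasome and PA28 genes and for Psmb5, Psmb6 and Psmb7, with 1 point per array, and the mean ± SD of 3 arrays beside each group (op/op, WT, M1, M2). Psmb8 lies between 5.34 and 5.64 in M1 cells and between 3.31 and 3.41 in M2 cells, whereas Psmb6 lies between 4.24 and 4.40 in M1 cells and between 4.21 and 4.34 in M2 cells. The highest op/op array of Psmb7, at 2.01, lies above the lowest WT array, at 1.95.

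The constitutive partners of these subunits did not pass the test between M1 and M2 cells. Psmb5 was at 4.16, 4.23 and 4.22 on the M1 arrays and at 4.23, 4.07 and 4.01 on the M2 arrays, with overlapping groups and a difference of 0.10 ± 0.16 (limma adjusted p = 0.763). Psmb6 differed by 0.06 ± 0.23 (limma adjusted p = 0.914) and Psmb7 by 0.27 ± 0.27 (limma adjusted p = 0.599). The groups overlapped for Psmb6 but not for Psmb7, at 4.60 to 4.88 on the M1 and 4.38 to 4.46 on the M2 arrays. Psmb7 did not pass either when only the 6 BMDM arrays were fitted (limma adjusted p = 0.0914). The second probe of Psmb5, which shares 31 bases with the probe of Psmb8, differed by 0.23 (limma adjusted p = 0.642 over all probes), against 2.12 for Psmb8.

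Within an array, the log2 signal of the induced subunit minus that of its constitutive partner removes the scaling of the array. Its zero point depends on the probes, so it was compared only between groups and without a test. For Psmb8 and Psmb5 it was 1.48, 1.11 and 1.21 on the M1 arrays, and -0.91, -0.76 and -0.60 on the M2 arrays. All M1 arrays lay above all M2 arrays, and the mean difference of 2.02 is a 4.06-fold shift of the ratio. For Psmb9 and Psmb6 the mean was 1.04 ± 0.11 in M1 cells and -1.04 ± 0.18 in M2 cells (SD, n = 3 each), a 4.25-fold shift. For Psmb10 and Psmb7 it was -0.48 ± 0.18 in M1 cells and -1.04 ± 0.16 in M2 cells, a 1.47-fold shift, again without overlap. Leaving out 1 array at a time kept these shifts between 1.91 and 2.10 for Psmb8 and Psmb5, between 2.01 and 2.18 for Psmb9 and Psmb6 and between 0.47 and 0.64 for Psmb10 and Psmb7 (log2).

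Among the other genes, those that rose in M1 cells were Psma6 (0.84 ± 0.25, limma adjusted p = 0.034) and Psma5 (0.84 ± 0.23, limma adjusted p = 0.0275), both subunits of the alpha ring, and Psmd11 (0.61 ± 0.17, limma adjusted p = 0.0308), a non-ATPase subunit of the 19S lid. Psmg1, a chaperone of alpha ring assembly, fell (-0.73 ± 0.21, limma adjusted p = 0.035). None of these 4 passed when any 1 of the 6 BMDM arrays was left out, whereas all 5 immunoproteasome and PA28 genes passed each time. When only the 6 BMDM arrays were fitted, without the spread of the renal arrays, all 4 passed (limma adjusted p = 0.000411 to 0.00232). The largest difference among the 41, 1.08 ± 0.39 for Psmd10, the oncoprotein gankyrin and a 19S assembly chaperone, did not pass (limma adjusted p = 0.0808). Psmg2, the partner of Psmg1 in its heterodimer, differed by -0.60 ± 0.20 (limma adjusted p = 0.0542) and the lid subunit gene Psmd8 by -0.31 ± 0.21 (limma adjusted p = 0.388). With only the BMDM arrays fitted, Psmd10, Psmg2 and Psmd8 passed (limma adjusted p = 0.000943, 0.00287 and 0.0243). By role, 2 of 7 alpha ring genes, 0 of 4 structural beta ring genes, 0 of 6 ATPases and 1 of 11 non-ATPase genes of the 19S cap rose. The M1 and M2 arrays did not overlap for 34 of 46 members, 28 higher and 6 lower in M1 cells, where 51.3% of all genes tested did not overlap, 24.7% higher and 26.6% lower.

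The median of the other 41 genes lay at 3.51, 3.42 and 3.39 on the M1 arrays and at 3.31, 3.31 and 3.41 on the M2 arrays. The median of the 5 genes lay at 5.52, 5.17 and 5.43 on the M1 arrays and at 3.42, 3.31 and 3.50 on the M2 arrays. The median of the 41 genes thus overlapped between M1 and M2 arrays and that of the 5 genes did not, although 29 of the 41 genes taken singly did not overlap.

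**Figure D2:**
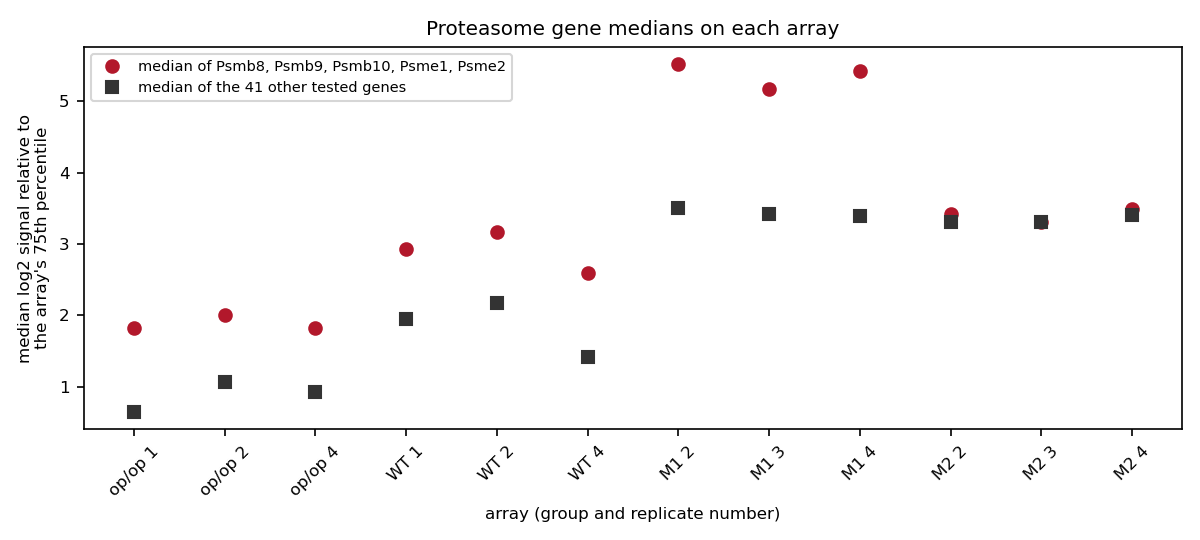
Median of the scaled log2 signal (vertical axis) of the 5 immunoproteasome and PA28 genes (red circles) and of the 41 other tested proteasome genes (black squares) on each array, named by group and replicate number. The circles are at 5.17 to 5.52 in M1 cells and 3.31 to 3.50 in M2 cells, where the squares span 3.39 to 3.51 and 3.31 to 3.41. On the op/op arrays the squares lie at 0.65 to 1.07, all below the WT squares at 1.42 to 2.17.

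Genes of class I peptide loading moved in the direction of the immunoproteasome genes between M1 and M2 cells. Of 12 tested genes 7 rose and 0 fell, where 8.85% of all genes tested rose and 8.92% fell. The list median was 1.33 (M1 minus M2). Tap1 and Tap2 encode the transporter that moves proteasome products into the endoplasmic reticulum, and Tap1 shares a promoter region with Psmb9. Tap1 rose 7.82-fold (2.97 ± 0.20, limma adjusted p = 1.09e-06) and Tap2 3.94-fold (1.98 ± 0.15). Nlrc5, the transactivator of class I genes, rose 9.60-fold (3.26 ± 0.30), and Tapbp, which encodes the loading chaperone tapasin, rose 4.20-fold (2.07 ± 0.33).

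Interferon signalling genes were also higher in M1 cells, with 12 of 18 higher, 1 lower and a list median of 1.63. Over all genes tested, 8.85% rose and 8.92% fell. Gbp3, an interferon-induced GTPase, rose 102-fold, Gbp2 rose 35.2-fold, and Cxcl9, an interferon-induced chemokine, rose 38.4-fold. Of 22 tested genes for proteasome assembly, binding and regulation, which include the Psmg chaperones, 0 rose and 3 fell. Beside Psmg1 those were Uchl5 (-0.80 ± 0.16) and Usp14 (-0.62 ± 0.17), deubiquitinases that bind the 19S cap. Of 15 genes of ubiquitin and p97, 1 rose, namely Nploc4, a cofactor of the p97 unfoldase (0.57 ± 0.14). Of 11 genes tied to the transcription of proteasome genes, Stat3 rose (1.44 ± 0.18), and Mafk (-1.08 ± 0.27) and Foxo3 (-0.78 ± 0.25) fell. Nfe2l1, the factor that drives proteasome synthesis when proteasome activity is short, differed by 0.42 ± 0.26 (limma adjusted p = 0.337).

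Promoter sequence was available for 40 of the 48 members (43 promoters, 250 bases before to 50 after the start, RefSeq, GRCm38.p6). The promoters of Psmb8 and Psme1 are shown because, of the 5 genes, only they held a match to the interferon motifs searched on both strands. The Psmb8 promoter, at chr17:34197945-34198244 on the plus strand, holds TTCNNNGAA, the gamma-activated site. The Psme1 promoter, at chr14:55578244-55578543 on the plus strand, holds GAAANNGAAA, the core of the interferon-stimulated response element, on its reverse strand. Capitals mark the matches.
Psmb8: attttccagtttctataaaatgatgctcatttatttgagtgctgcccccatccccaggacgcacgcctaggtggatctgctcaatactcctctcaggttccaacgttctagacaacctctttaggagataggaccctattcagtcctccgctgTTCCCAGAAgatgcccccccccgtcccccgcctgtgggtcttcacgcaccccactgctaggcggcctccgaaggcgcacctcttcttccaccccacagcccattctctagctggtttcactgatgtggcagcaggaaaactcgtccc
Psme1: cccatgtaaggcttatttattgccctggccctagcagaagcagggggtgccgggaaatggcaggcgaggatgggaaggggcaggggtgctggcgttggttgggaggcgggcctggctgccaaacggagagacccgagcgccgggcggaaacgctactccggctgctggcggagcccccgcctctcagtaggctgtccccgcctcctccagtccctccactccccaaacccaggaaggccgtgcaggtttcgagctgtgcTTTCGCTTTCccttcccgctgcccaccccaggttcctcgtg

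TTCNNNGAA occurs in 8.298% of all 32851 promoters of this length and GAAANNGAAA in 3.443%, and neither of the 2 promoters shown holds both motifs. Among the other members, 2 of 35 genes (Psmd2 and Psmg1) held TTCNNNGAA and 4 (Psmb3, Psmd4, Psmd9 and Psmg4) held GAAANNGAAA. In the main fit none of those 6 rose in M1 cells and Psmg1 fell. When only the 6 BMDM arrays were fitted, Psmd4 rose (0.31, limma adjusted p = 0.0345) and Psmg1 fell (limma adjusted p = 0.00232). TGACNNNGC, the core of the antioxidant response element, was in 12.392% of all promoters, in 0 of the 5 genes and in 6 of the 35 others, among them Psmb5 and Psmb6. CCAAT was in 37.408% of all promoters, in Psmb9 among the 5 genes and in 13 of the 35. A match describes the letters of the window and is not a bound site.

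Renal op/op cells were compared with renal WT cells to ask what differs in kidney myeloid cells of glyoxylate-treated mice without functional M-CSF. Here the constitutive and the immunoproteasome genes were lower together. Of 46 tested members 39 fell and 0 rose in op/op cells, where 28.5% of the 27071 genes tested fell, 30.9% rose and 59.4% passed in either direction. All 5 immunoproteasome and PA28 genes fell, between 1.79-fold and 1.95-fold, and so did 34 of the 41 others. The median difference was -0.90 over the 5 genes and -0.90 over the 41, and 0.16 over all genes tested (op/op minus WT, log2). The groups did not overlap for 38 of 46 members, all lower in op/op cells. Of all genes tested 58.8% did not overlap, with 26.2% of all genes lower and 32.6% higher in op/op cells.

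Psmb8 was at 1.82, 1.71 and 1.73 on the op/op arrays, and at 2.94, 3.17 and 2.05 on the WT arrays. The lowest WT value, on replicate 4, came close to the op/op values without reaching them, and the difference was -0.96 ± 0.25 (SE, n = 3 each, limma adjusted p = 0.00738). Psmb9 was at 2.47, 2.45 and 2.40 on the op/op arrays and at 3.62, 3.83 and 2.60 on the WT arrays, a difference of -0.91 ± 0.27 (limma adjusted p = 0.0141). The op/op arrays of both genes were closely grouped, and WT replicate 4 again lay nearest to them.

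Psmb10, on chromosome 8 and outside the MHC, was at 1.05, 1.08 and 1.19 on the op/op arrays and at 1.79, 2.05 and 2.09 on the WT arrays. For it WT replicate 4 was the highest WT array, and the difference was -0.86 ± 0.15 (limma adjusted p = 0.00144). Psme1 was at 3.66, 3.87 and 3.69 on the op/op arrays and at 4.76, 4.98 and 4.18 on the WT arrays, a difference of -0.90 ± 0.20 (limma adjusted p = 0.00371). Psme2 was at 1.83, 2.0 and 1.82 on the op/op arrays and at 2.51, 2.93 and 2.73 on the WT arrays, a difference of -0.84 ± 0.15 (limma adjusted p = 0.00156). No group of the 5 genes overlapped.

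Without WT replicate 4 all 5 fell. The difference became -1.30 for Psmb8, -1.28 for Psmb9, -1.13 for Psme1, -0.84 for Psme2 and -0.81 for Psmb10, with limma adjusted p-values of 0.000267 to 0.00178. Among the 41 other genes 37 then fell, with a median of -1.03. In this fit no WT array carried the H2-Ea signal of the op/op arrays. For Psmb8 and Psmb9, genotype and MHC marker thus cannot be told apart in it. With slide as a term, which compares arrays of the shared slide, the differences were -0.85 for Psmb8, -0.77 for Psmb9, -0.96 for Psmb10, -0.84 for Psme1 and -0.95 for Psme2 (limma adjusted p = 0.0475 for Psmb9, and lower for the others). In that fit 32 of the other 41 fell, and Psme3 rose (0.81, limma adjusted p = 0.00253). Because WT replicate 1 was alone on its slide, the slide term gives the same differences as leaving that array out. They are thus not separate checks. Psmb9 lost its call without WT replicate 2 (-0.67, limma adjusted p = 0.0571) and when only the 6 renal arrays were fitted (limma adjusted p = 0.0564).

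The catalytic subunits of the constitutive particle fell as well. Psmb5 was at 1.16, 1.56 and 1.47 on the op/op arrays and at 1.99, 2.30 and 2.20 on the WT arrays, a difference of -0.76 ± 0.16 (limma adjusted p = 0.00303). Psmb6 was at 0.87, 1.46 and 0.93 on the op/op arrays and at 1.55, 2.40 and 1.81 on the WT arrays, a difference of -0.83 ± 0.23 (limma adjusted p = 0.0102). Psmb7 was at 1.24, 2.01 and 1.85 on the op/op arrays and at 2.92, 2.93 and 1.95 on the WT arrays, a difference of -0.90 ± 0.27 (limma adjusted p = 0.0161). Psmb5 and Psmb6 had groups that did not overlap, whereas Psmb7 on op/op replicate 2 lay above WT replicate 4. Psmb7 lost its call with slide as a term (-0.74, limma adjusted p = 0.0561), without op/op replicate 1, WT replicate 1 or WT replicate 2 (-0.74 to -0.67, limma adjusted p = 0.058 to 0.0702) and when only the 6 renal arrays were fitted (limma adjusted p = 0.0629). In that last fit Psmb6 lost its call too (limma adjusted p = 0.0555), and Psmb5 did so with its second probe (-0.52, limma adjusted p = 0.112).

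The difference within an array between induced and constitutive subunit overlapped between the renal groups for all 3 pairs. For Psmb8 and Psmb5 it was 0.66, 0.16 and 0.25 on the op/op arrays, and 0.95, 0.87 and -0.16 on the WT arrays. Their means differed by -0.20, against 2.02 between M1 and M2 cells. The renal groups differed by -0.08 for Psmb9 and Psmb6 and by 0.03 for Psmb10 and Psmb7. Without WT replicate 4 the 3 values were -0.55, -0.40 and 0.42, so that array moved each of them by more than its own size. Whether the shift between M1 and M2 cells differs from that between op/op and WT cells was not tested.

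**Figure D3:**
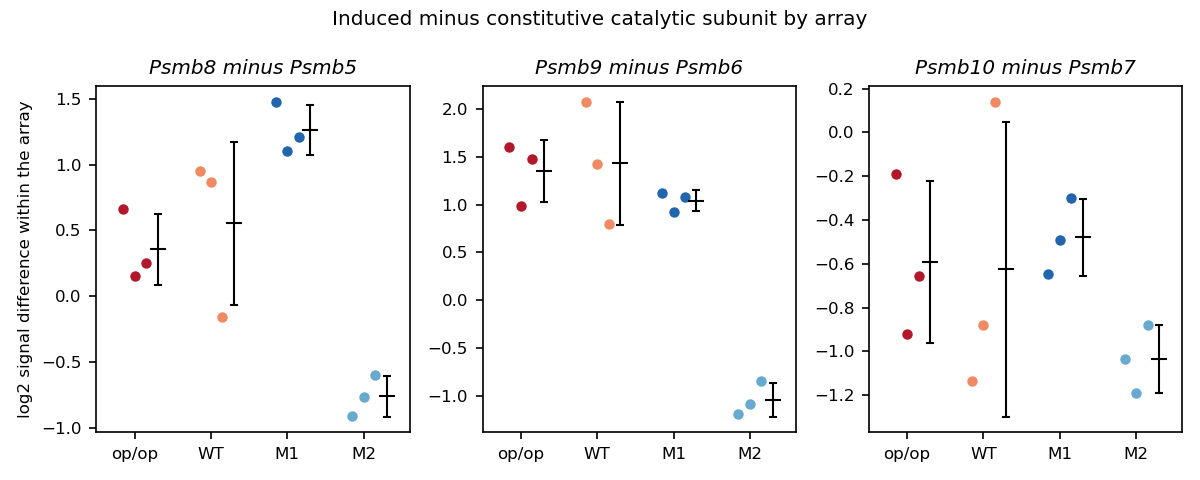
Log2 signal of the induced subunit minus that of its constitutive partner on each array (vertical axis), for Psmb8 and Psmb5, Psmb9 and Psmb6, and Psmb10 and Psmb7, with the mean ± SD of 3 arrays per group (op/op, WT, M1, M2). M1 and M2 points do not overlap in any of the 3 panels, with mean differences of 2.02, 2.09 and 0.56, whereas op/op and WT points overlap in all of them.

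By role, all 7 tested alpha ring genes fell in op/op cells (median -1.11, from -1.30 to -0.90), as did all 4 structural beta ring genes (-1.11 to -0.64) and all 6 ATPases of the 19S base (median -0.88, from -1.23 to -0.67). Of the 11 non-ATPase genes 9 fell. Some of these calls were near the threshold. When only the 6 renal arrays were fitted, Psma6, Psmb1, Psmb3, Psmc1, Psmc4, Psmc5, Psmd7 and Psmd8 did not pass (limma adjusted p = 0.05 to 0.07). Psmb1 also lost its call with slide as a term (-0.68, limma adjusted p = 0.0758) and without op/op replicate 1, WT replicate 1 or WT replicate 2 (limma adjusted p = 0.0722 to 0.0782). Psmd7 lost its call without op/op replicate 1 or WT replicate 2, and Psmd8 without op/op replicate 1. All 4 Psmg chaperones of 20S assembly fell, Psmg2 not with normexp background correction (-0.25, limma adjusted p = 0.0943), but 0 of the 3 chaperones of 19S assembly (Psmd5, Psmd9 and Psmd10) passed, with differences of -0.89 to -0.31, of which Psmd5 and Psmd10 passed under 6 alternatives each. The lowest of the other 41 was Psmg3, a chaperone that acts early in alpha ring assembly, at -3.2, -2.51 and -2.92 on the op/op arrays and at -1.12, -1.73 and -1.39 on the WT arrays. Its difference was -1.46 ± 0.21 (limma adjusted p = 0.000711), and 1 of 3 op/op arrays had it well above background. With normexp it was -0.59 (limma adjusted p = 0.00503) and no longer the lowest.

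Psma1, an alpha ring gene, was at 0.65, 1.07 and 1.01 on the op/op arrays and at 2.02, 2.59 and 2.01 on the WT arrays, and fell by 1.30 ± 0.20 (limma adjusted p = 0.000848). Psmd12, a scaffold subunit of the lid, fell by 1.25 ± 0.22 (limma adjusted p = 0.00155). The 7 members that did not pass were Psmd5, Psmd9, Psmd10, Psmd11, Psmd14, Psme3 and Psmf1. Psmd11, a lid subunit whose level limits 26S assembly in human stem cells, was at 0.42, 0.62 and 0.64 on the op/op arrays and at 0.18, 0.81 and 0.45 on the WT arrays. Its difference was 0.08 ± 0.17 (limma adjusted p = 0.692). Psmf1, the proteasome inhibitor PI31, differed by -0.22 ± 0.26 (limma adjusted p = 0.462).

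Psme3 encodes PA28 gamma, the nuclear activator that works without ubiquitin and is not induced by interferon. It was at 8.62, 8.48 and 8.37 on the op/op arrays and at 8.55, 7.65 and 7.72 on the WT arrays, with a difference of 0.52 ± 0.22 that did not pass (limma adjusted p = 0.0606). That call depended on the setting, since Psme3 rose in 6 of 19 alternatives, among them those without WT replicate 1 (0.81, limma adjusted p = 0.00267) and with array weights (0.70, limma adjusted p = 0.00758), and differed by 0.17 with quantile normalization (limma adjusted p = 0.28). The 6 include slide as a term, which gives the same difference as leaving out WT replicate 1. Its single probe holds a run of 13 alternating T and G bases that starts with T. A run counted from a T and at least as long was in 102 of 55681 probes (0.1832%). Its processed signal before scaling was 97383 to 99290 on op/op, 82174 to 104051 on WT, 73360 to 81541 on M1 and 75691 to 82021 on M2 arrays. Psme4, the gene of the activator PA200, fell in op/op cells (-0.90 ± 0.16, limma adjusted p = 0.00144).

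**Figure D4:**
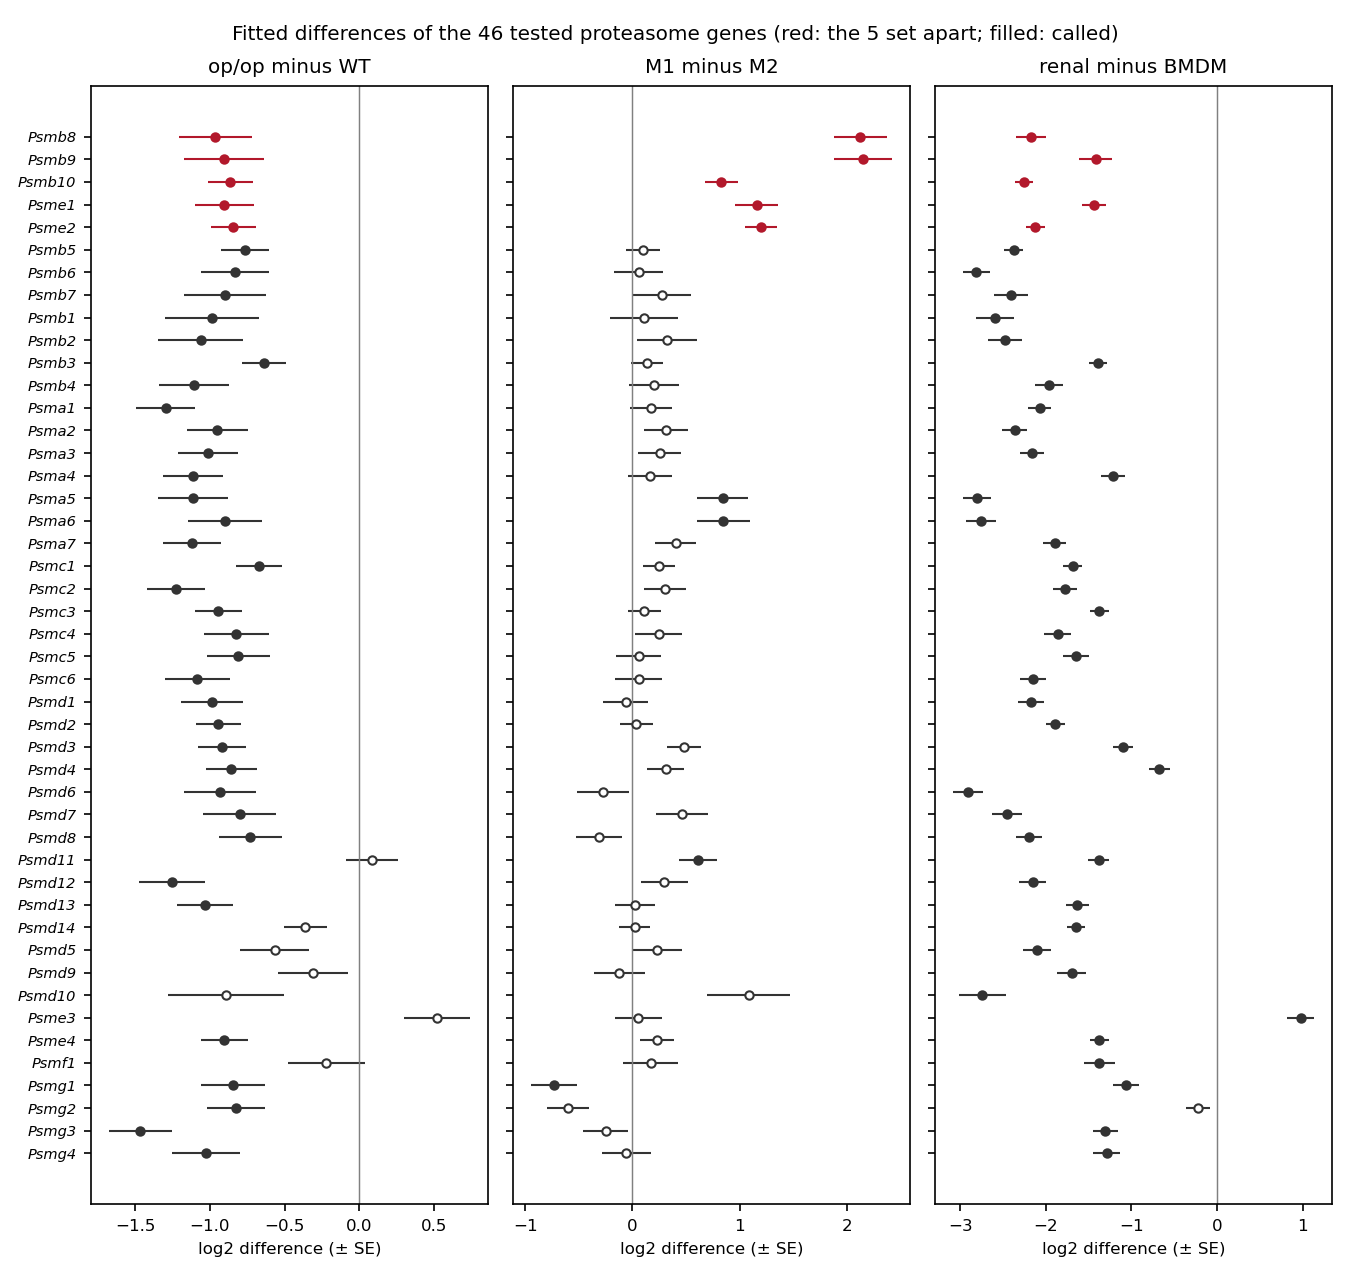
Fitted log2 difference ± SE (horizontal axis) of each of the 46 tested proteasome genes (vertical axis, by role) in op/op minus WT, M1 minus M2 and renal minus BMDM, with the 5 immunoproteasome and PA28 genes in red and filled points for genes that passed the test. In M1 minus M2 all 5 red points are filled, at 0.83 to 2.15, a range that also holds the black points of Psmd10, Psma6 and Psma5, and in op/op minus WT they lie at -0.96 to -0.84 among the black ones. Psme3 is the one gene right of 0 in renal minus BMDM.

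Genes of the wider pathway were lower in op/op cells as well. All 12 class I peptide loading genes fell, with a list median of -1.32, where 28.5% of all genes tested fell and 30.9% rose. Tap1 fell by 1.31 ± 0.20 (limma adjusted p = 0.000883) and Erap1, the aminopeptidase that trims proteasome products, was detected above background on none of the op/op arrays. H2-K1 fell by 1.39 ± 0.25 and H2-D1 by 4.12 ± 0.40, both genes of the MHC, whose haplotype marker differed between the arrays. B2m, outside the MHC, fell by 1.06 ± 0.24 (limma adjusted p = 0.00483). Among interferon signalling genes 10 of 18 fell and 2 rose. Those lower included Ifngr1, a chain of the interferon-gamma receptor (-1.24 ± 0.14), Cxcl10 (-3.14 ± 0.36), Gbp3 (-1.57 ± 0.22) and Irf1, a factor that induces immunoproteasome genes (-1.15 ± 0.17), while Gbp5, another interferon-induced GTPase, was among those that rose (0.92 ± 0.16).

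Of 20 tested assembly, binding and regulator genes, a list that includes the Psmg chaperones already counted as members, 13 fell and 0 rose. Zfand5, which encodes a proteasome-stimulating zinc finger protein, fell by 1.29 ± 0.17, Pomp, the maturation factor of the core, by 0.96 ± 0.14 and Uchl5 by 0.95 ± 0.16. Of 15 ubiquitin and p97 genes 11 fell and 1 rose. The cytosolic leucine aminopeptidase gene Lap3 fell by 1.88 ± 0.29, while Faf1, a p97 adaptor, rose 4.65-fold. Of 11 genes tied to proteasome gene transcription 9 fell and 1 rose. Nfe2l2, which activates proteasome genes under oxidative stress, fell by 1.93 ± 0.26 (limma adjusted p = 0.000564) and its small Maf partner Mafg by 1.28 ± 0.15. Nfyb, a subunit of the factor that binds CCAAT, rose (1.09 ± 0.22), whereas its partners Nfyc (-0.97 ± 0.22) and Nfya (-1.14 ± 0.27) fell.

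Markers of several cell types also differed between op/op and WT cells, some lower and some higher in op/op cells. Of 13 tested macrophage markers 11 fell in op/op cells and 0 rose, and their summed linear signal was 63.1 to 67.6 on op/op and 105 to 230.4 on WT arrays (multiples of the 75th percentile). Cd68 was at 3.2 in op/op and 4.69 in WT cells on average, and Emr1, which encodes F4/80, at 0.22 in op/op and 2.34 in WT cells. Of 15 proximal tubule genes 13 fell and 0 rose, with sums of 19.8 to 38.4 on op/op and 74.6 to 156 on WT arrays. Of 7 tested T and NK cell genes 6 rose. The 8 genes of that list tested in renal minus BMDM had sums of 96.1 to 129.7 on op/op and 31 to 69.6 on WT arrays. Of 8 B cell genes 6 rose and 1 fell (34.1 to 45.8 on op/op, 18 to 25.5 on WT arrays). Of 9 neutrophil genes 4 rose and 0 fell, and of 10 distal nephron and collecting duct genes 4 rose and 1 fell. Of 8 fibroblast and mural cell genes 4 fell and 0 rose. Of 9 dendritic cell genes 1 rose and 2 fell, and of 10 endothelial genes 1 rose and 1 fell. Over all genes tested, 28.5% fell and 30.9% rose. The part of these cell types in the proteasome results was not tested. In such bulk samples fewer cells of a type and less RNA per cell cannot be told apart.

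Renal cells, the mean of op/op and WT, were then set against BMDM, the mean of M1 and M2. This comparison uses the same arrays as the other 2, and slide and tissue cannot be told apart in it. Proteasome genes were lower in renal cells. Of 46 tested members 44 fell and 1 rose, where 34.7% of the 28266 genes tested fell, 47.4% rose and 82.1% passed in either direction. The median difference was -2.12 over the 5 genes, -1.89 over the other 41 and 0.32 over all genes tested. The arrays did not overlap for 41 of 46 members, 40 lower and 1 higher in renal cells, against 46.7% of all genes, 20.6% lower and 26.1% higher.

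Psmb10 fell 4.78-fold (-2.26 ± 0.11), Psmb8 4.51-fold (-2.17 ± 0.17) and Psme2 4.35-fold (-2.12 ± 0.11) in renal cells, while Psme1 (-1.44 ± 0.14) and Psmb9 (-1.42 ± 0.19) fell less than 3-fold (n = 6 arrays each). The limma adjusted p-values of these 5 were 1.59e-08 to 2.52e-05. Psmb9 was the one whose arrays overlapped, because WT replicates 1 and 2, at 3.62 and 3.83, lay above the M2 arrays. The constitutive subunits fell 5.19-fold (Psmb5, -2.38 ± 0.11), 7.02-fold (Psmb6, -2.81 ± 0.16) and 5.30-fold (Psmb7, -2.41 ± 0.19). Within the array, Psmb9 minus Psmb6 averaged 1.39 ± 0.46 in renal cells and 0.00 ± 1.15 in BMDM (SD, n = 6 each). The 6 renal arrays lay between 0.79 and 2.08, overlapping the M1 arrays at 0.92 to 1.13 and above the M2 arrays at -1.19 to -0.85.

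The lowest values among the other genes were those of the lid subunit Psmd6 (-2.91 ± 0.17), of Psmb6 and of the alpha ring subunit Psma5 (-2.81 ± 0.17). The 6 ATPases fell by 1.37 to 2.15 and the 7 tested alpha ring genes by 1.21 to 2.81. At the other end, Psme3 was the one gene that rose (0.98 ± 0.16, limma adjusted p = 0.000104), and with quantile normalization its difference was 0.24 (limma adjusted p = 0.0331). Before scaling, its signal was 82174 to 104051 on renal and 73360 to 82021 on BMDM arrays, so the size of its rise depends on the scaling. Psmg2 did not pass (-0.22 ± 0.14, limma adjusted p = 0.159) and Psmd4, the ubiquitin receptor of the cap, fell by 0.67 ± 0.12 (limma adjusted p = 0.000276), or by 0.34 with quantile normalization.

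Most genes of the pathway lists were lower in renal cells. Over all genes tested, 34.7% fell and 47.4% rose in renal cells. All 12 class I loading genes fell (Tap1 by 1.55 ± 0.14, Calr, a chaperone of class I folding, by 2.56 ± 0.20), as did 14 of 18 interferon genes, while 1 rose. Of 22 assembly and regulator genes, the Psmg chaperones among them, 20 fell. Of 15 ubiquitin and p97 genes 13 fell, and of 11 transcription genes 7 fell and 1 rose, the last being Nfyb (2.10 ± 0.15). Kidney genes marked the renal arrays, with 14 of 15 proximal tubule genes higher and sums of 19.8 to 156 on renal and 2.17 to 4.91 on BMDM arrays. Of 13 macrophage markers 10 were lower and 2 higher in renal cells. The part of either in the proteasome result was not tested.

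Over the 4 groups, the order of the means from low to high was op/op, WT, M2, M1 for 31 of the 41 other genes and for 4 of the 5. Psmb9 differed from that order in having WT (3.35) above M2 (3.24). For 7 of the 41 the order ended in M1 then M2, among them Psmg1, Psmg3 and Psmg4, and Psmg2 had M1 below WT. Psmd11 had WT below op/op, and Psme3 had the order M2, M1, WT, op/op. Within groups, WT replicate 4 was the lowest of the 3 WT arrays for 32 of the 46 genes and op/op replicate 1 the lowest op/op array for 36.

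Of the 48 members, 12 had more than 1 probe. Of their 13 dimmer probes, 11 had the same sign of difference as the brightest in each of the 3 comparisons. The exceptions were 1 probe each of Psmb9 and Psme2 in op/op minus WT and in renal minus BMDM, and the second probes of Psmc3 and Psmd9 in M1 minus M2. The second Psmb9 probe, annotated to another transcript (ENSMUST00000114230, mm9 chromosome 17, 34322762 to 34322821, minus strand), was well above background on 9 of 12 arrays. It was higher in op/op than in WT cells by 1.14, higher in M1 than in M2 cells by 0.99 without passing (limma adjusted p = 0.0737 over all probes), and higher in renal cells than in BMDM by 1.84. The third Psme2 probe, annotated to ENSMUST00000104958 with a mapped span of 219297 bases on chromosome 14, differed by 0.89, 0.39 and 1.5 in the same 3 comparisons. The other dimmer Psme2 probe differed by -0.66, 1.70 and -2.43, with the signs of the brightest. The lower level of Psmb9 in op/op and in renal cells thus rests on its brightest probe.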

How the data were processed

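Gene expression was measured in 12 samples, 3 in each of 4 groups. Per the labels, RNA came from an RNeasy Micro preparation, was amplified with Ovation PicoSL WTA reagents and carried Cy3. The deposited spot intensity values were made with Agilent Feature Extraction 10.7.3.1, which subtracted the background, per the file headers. The value table the authors deposited holds log2 values of the same arrays. Its columns correlate at 1 with the log2 scanner signals and have medians of -2.46 to -1.87, while what it was scaled to was tested only through that correlation. Its values were an alternative here.

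From the scanner files, spots flagged as non-uniform or as outliers were left out, which removed 30 of 55681 probes. Spots of a probe were averaged on the log2 scale, and each array's 75th percentile was subtracted. The brightest probe stood for each gene name of the array design, so splice forms and cross-hybridizing paralogs are not separated. Probes are placed as in the files (mm9), and promoters are from RefSeq (GRCm38.p6).

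One linear model over the 4 groups, with all 12 arrays and no covariate, was fitted with limma 3.58.1 (R 4.3.3). P-values were adjusted by Benjamini-Hochberg over all genes tested and called under 0.05. Replicate numbers were not treated as pairs in this model. Deviations from the group means of same-numbered arrays correlated at -0.164 to 0.0713 between op/op and WT and at -0.072 to 0.144 between M1 and M2. Those of differently numbered arrays correlated at -0.272 to 0.288 and at -0.222 to 0.133. So few arrays cannot settle whether same-numbered samples were paired. The precision is limited by the number of arrays. On simulated data with 100 genes changed at each fold, 29% of 2-fold and 88% of 4-fold changes were recovered for op/op against WT, 39% and 85% for M1 against M2, and 70% and 93% for renal cells against BMDM. Far more genes passed in the data than were changed there, which makes the adjustment in the simulation stricter. These shares therefore do not give the sensitivity of the comparisons reported here.

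The members and the gene lists were chosen with earlier results of these data known, so their counts are descriptions. Genes were named by a rule: the 5 genes set apart and Psmb5, Psmb6 and Psmb7 throughout, the 3 highest and 3 lowest of the other members in each comparison, members never above background, up to 4 genes of a list with the smallest p, and H2-Ea. Others were named for a probe, a motif, a call or as a marker after their values were seen. Some genes that the rule names are left out of this account.

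The alternatives were quantile normalization, normexp background correction (offset 50), the deposited values, a filter on all 12 arrays or none, the second brightest probe or the mean of a gene's probes, array weights, a robust eBayes with trend, a fit of only the groups compared, the replicate block, slide as a term and leaving out each array. Centring on genes above background on all 12 arrays was added after the data had been seen. Python 3.11.15 with pandas 2.3.3 and matplotlib 3.10.9 drew the figures.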

Additional observations from a re-analysis of the deposited data

How the results depend on the processing

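Psmb8, Psmb10 and Psme1 kept their direction and call in all 3 comparisons under every alternative run. Each of them has 1 probe, so the mean of probes and the second brightest probe could not change their values. Psme2, which has more probes, kept its direction and call except with the mean of its probes in op/op minus WT (-0.20, limma adjusted p = 0.19). That setting left 3 of the 5 genes called there. Psmb9 depended on its probe. With the mean of its probes it was at 0.12 (limma adjusted p = 0.653) in op/op minus WT and 0.21 (limma adjusted p = 0.219) in renal minus BMDM. With the second probe it was at 1.14 (limma adjusted p = 0.0171) and 1.84 (limma adjusted p = 2.6e-05) in those comparisons, and in M1 minus M2 it lost its call (0.99, limma adjusted p = 0.071). The difference of Psmb9 minus Psmb6 was 0.95 with the mean of probes and 1.97 with the second probe in op/op minus WT, 1.51 and 0.93 in M1 minus M2, and 3.02 and 4.65 in renal minus BMDM, since Psmb6 has 1 probe.

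The 4 calls among the 41 other genes in M1 minus M2 were the least stable. There were 0 in each fit without 1 array, 2 with quantile normalization, 2 with the replicate block, 14 (10 higher and 4 lower) when only the M1 and M2 arrays were fitted and 12 (9 higher and 3 lower) with array weights. All genes called in M1 minus M2 came to 4652, against 9695 with only those groups and 10364 with array weights, and in op/op minus WT to 16089, against 10152 with only those groups. The replicate block moved no other count of calls by more than 1.5 times. Among the other 41 genes, 34 fell in op/op cells, against 24 with only those groups and 30 to 37 without 1 array. Their median was -1.03 to -0.79 without 1 array and -0.86 with slide as a term. Quantile normalization moved the median of all genes in renal minus BMDM by -0.24, and relative to it the median of the 41 was -1.79, against -2.20. In M1 minus M2, leaving out any array kept all 5 immunoproteasome and PA28 genes called. The causes of these changes were not tested. Genes not well above background on a group's arrays, such as Psmb11, could not be measured there.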
